A study of Mus musculus with 4 samples.

Results

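The genes described here are 8 that are known as fetal or oncofetal targets and regulators of the let-7 microRNAs: Hmga2, Hmga1, Lin28a, Lin28b, Igf2bp1, Igf2bp2, Igf2bp3 and Arid3a. They were chosen by the measured values of Hmga2, whose normalized count was near 0 in the control libraries and high in 1 of the 2 libraries labelled Tet1 KO, and by their known tie to let-7. Matched by exact symbol, 6 of the 8 were among the 25393 genes listed in the expression table, whereas Lin28a and Lin28b were not listed and their levels were not analysed here. The filter for testing, a mean over the 4 libraries of 1 normalized count or more, left 22094 genes, and all 6 passed it. Since differences among these libraries chose the genes, their differences are given below as descriptions, without a test.

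RNA-seq had been made from primary astrocyte cultures of 2 wild-type (WT) and 2 tet1-/- libraries, with untreated cells of the C57BL/6 strain from cortex plus hippocampus at postnatal day 1. The deletion is constitutive, so every cell type of the culture carries it, and a flask held cells of 2 mice. Cells grew for about 7 days, were purified by shaking at 260 rpm and were collected 24 h later. The study describes its RNA-seq repeats as biological and names more of them than the libraries analysed here. The labels do not say whether the 2 libraries of a genotype came from separate isolations, so p-values measure only the spread between these libraries. Between 18749610 and 22673555 reads per library fell on genes. Tet1 itself was listed at 266 and 121 normalized counts in WT replicates 1 and 2 and at 173 and 463 in KO replicates 1 and 2, with overlapping groups, so RNA of the targeted gene was not lower under that label and the libraries are named by their labels throughout. What part of the transcript is deleted is not given in the sources used here.

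let-7 is a microRNA family that becomes abundant as cells differentiate and holds down a set of growth genes of the embryo and fetus. LIN28A and LIN28B are RNA-binding proteins that block let-7 maturation, and both of their mRNAs are also let-7 targets, so the pair form a double-negative loop. HMGA2 and HMGA1 are small chromatin proteins that bind AT-rich DNA and are high in embryonic tissue and many tumours. IGF2BP1, IGF2BP2 and IGF2BP3 bind mRNAs and control their stability, transport and translation, and ARID3A is a DNA-binding protein of fetal and lymphoid cells. In neural stem cells of the young brain, Hmga2 is known to promote self-renewal and to decline with age as let-7 increases.

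The sequences that tie these genes together are the let-7 seed and its matches in their 3′ UTRs. Of 11 mature let-7 and miR-98 names in RefSeq (GRCm38.p6), 10 shared 1 seed, bases 2 to 8 of the microRNA, over 12 loci. They are shown 5′ to 3′ with those bases in capitals, to let the 3′ UTR sites be read against them. let-7j, the other name, differed within the seed.
let-7a-5p: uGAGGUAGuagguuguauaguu
let-7b-5p: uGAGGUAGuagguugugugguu
let-7d-5p: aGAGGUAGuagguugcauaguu
let-7i-5p: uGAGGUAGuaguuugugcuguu
miR-98-5p: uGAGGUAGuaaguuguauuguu
let-7j: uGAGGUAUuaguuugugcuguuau

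The complement of the shared seed is the 7-letter site CTACCTC, searched on the transcript strand in the longest annotated 3′ UTR of each protein-coding gene of GENCODE M21 (GRCm38). It was present at least once in 1897 of 20998 such genes (9.03%) and at least 2 times in 226 (1.08%). The 8-letter form CTACCTCA, which contains the shorter site and ends in A opposite the first base of the microRNA, was in 644 genes (3.07%). Hmga2 had 4 sites in a 3′ UTR of 3014 bases, Lin28b 4 in 4445 bases and Igf2bp1 4 in 6337 bases. Lin28a and Arid3a had 2 each, and Hmga1, Igf2bp2 and Igf2bp3 had 1 each. Hmga1 had none in the transcript with its longest coding sequence. The genes were named as let-7 targets, so the presence of sites is a property of the choice and not a result. Sites of 30 bases are shown with the match in capitals, all 4 of Hmga2 because the largest difference lies there, and the first of the other genes.
Hmga2 site 1, chr10:120364223-120364252, minus strand: gggggcgccgacattcaatttCTACCTCag
Hmga2 site 2, chr10:120362986-120363015, minus strand: aataatccccactcctcaataCTACCTCtg
Hmga2 site 3, chr10:120362548-120362577, minus strand: gacttcctgatttgcaaggaaCTACCTCca
Hmga2 site 4, chr10:120361690-120361719, minus strand: ttgtacaatcaaaacacactaCTACCTCtt
Hmga1, chr17:27563271-27563300, plus strand: atcttctcctctgttcacaaaCTACCTCtg
Igf2bp1 site 1, chr11:95961777-95961806, minus strand: ggcagtgctgtgcgaagtaaaCTACCTCaa
Igf2bp2, chr16:22059472-22059501, minus strand: agaaaaacacacaaataaaagCTACCTCag
Igf2bp3, chr6:49086786-49086815, minus strand: taaacgtgcatttttactcaaCTACCTCag
Arid3a site 1, chr10:79953889-79953918, plus strand: acatgcaaggcaagtttctttCTACCTCag
Lin28a site 1, chr4:134005188-134005217, minus strand: tggagtgcacagcctgttgaaCTACCTCat
Lin28b site 1, chr10:45381021-45381050, minus strand: cccttcacccgggcgggaagtCTACCTCat
A match is a sequence description only. Mature let-7 was not measured in these libraries.

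**Figure D1:**
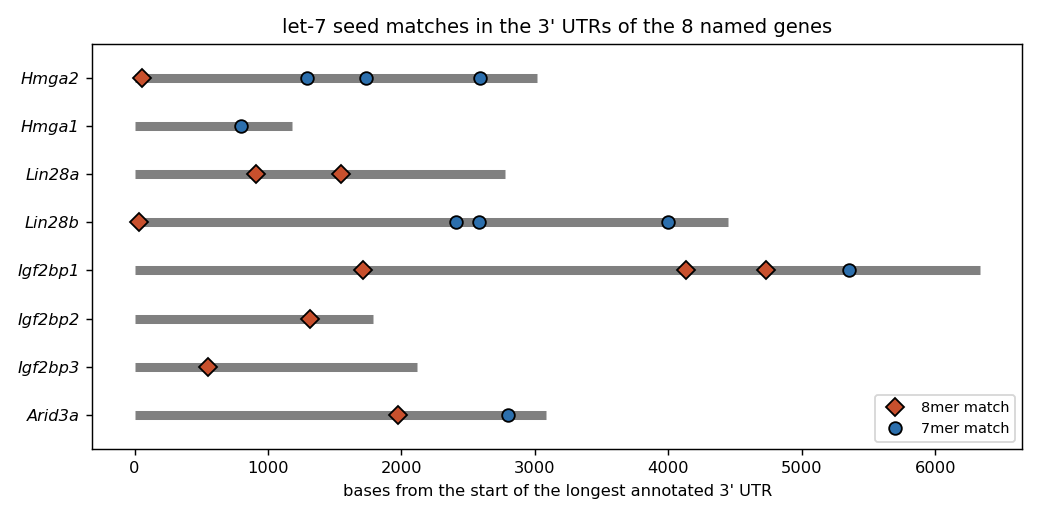
Longest annotated 3′ UTR of each gene, drawn from its first base after the stop codon (x axis, bases), with the positions of the 7-letter and 8-letter let-7 seed matches marked. Igf2bp1 has the longest 3′ UTR (6337 bases) and Hmga1 the shortest of the 8 genes (1183 bases), while Hmga2, Lin28b and Igf2bp1 each carry 4 matches.

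Hmga2 (ENSMUSG00000056758, chr10:120361275-120476469, minus strand) was listed at 1.07 and 6.44 normalized counts in WT replicates 1 and 2, at 12.8 in KO replicate 1 and at 1163 in KO replicate 2. These values rest on 1 and 7 reads in WT and on 12 and 1290 reads in KO. A single KO library was therefore high, while the other stood only slightly above WT. KO replicate 2 was 90.5 times KO replicate 1 (95% counting interval 51.6 to 176, exact) and 294 times the mean of WT (149 to 683). KO replicate 1 was 3.25 times the mean of WT (1.22 to 9.17). All such intervals cover counting error only and do not include variation between cultures. As group means the values were 3.75 ± 3.80 normalized counts in WT and 588 ± 813 under the KO label (SD, n = 2 each), so the SD of the KO group exceeded its mean. On the log2(normalized count + 1) scale, in which low levels are pulled together, the difference of KO minus WT was 5.02 with a standard error of 2.11 from the limma fit. Without KO replicate 2 it was 1.82, and without KO replicate 1 it was 8.21. Between the 2 KO libraries the log2 difference was 6.39, and 15 of the 22094 genes tested (0.0679%) had one as large or larger. Annotated genes that overlap Hmga2 number 3, of which 2 are antisense, and the strand of the libraries is not given in the sources used here.

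Hmga1 (ENSMUSG00000046711, chr17:27556497-27563674, plus strand) was the other gene with a wide gap between the 2 KO libraries. It was listed at 752 and 1149 normalized counts in WT, at 335 in KO replicate 1 and at 7998 in KO replicate 2. The KO libraries thus lay on either side of WT. KO replicate 2 was 23.9 times KO replicate 1 (21.3 to 26.8) and 8.28 times the WT mean (7.89 to 8.70), whereas KO replicate 1 was 0.347 times the WT mean (0.307 to 0.391). The log2 difference of KO minus WT was 0.82 (standard error 1.43), and it turned to −1.47 without KO replicate 2. A log2 difference between the KO libraries as large as that of Hmga1, 4.57, was found in 63 of the genes tested (0.285%).

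Hmga1 counts cannot be separated fully from those of Hmga1b (ENSMUSG00000078249, chr11:120762794-120764419, plus strand), a single-exon copy. Of the 31-letter words of Hmga1 transcripts 62.1% also occur in Hmga1b, and of those of Hmga1b 92.7% occur in Hmga1. The 30 bases around the let-7 match are the same in both. Hmga1b was listed at 112 and 188 normalized counts in WT and at 67.4 and 1309 in KO, the same order as Hmga1. Summed, the 2 genes gave 864 and 1337 normalized counts in WT, 402 in KO replicate 1 and 9307 in KO replicate 2. Hmga1b took between 13.0% and 16.8% of the sum in the 4 libraries. None of the other 5 listed genes shared more than 2.26% of its words with another gene.

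**Figure D2:**
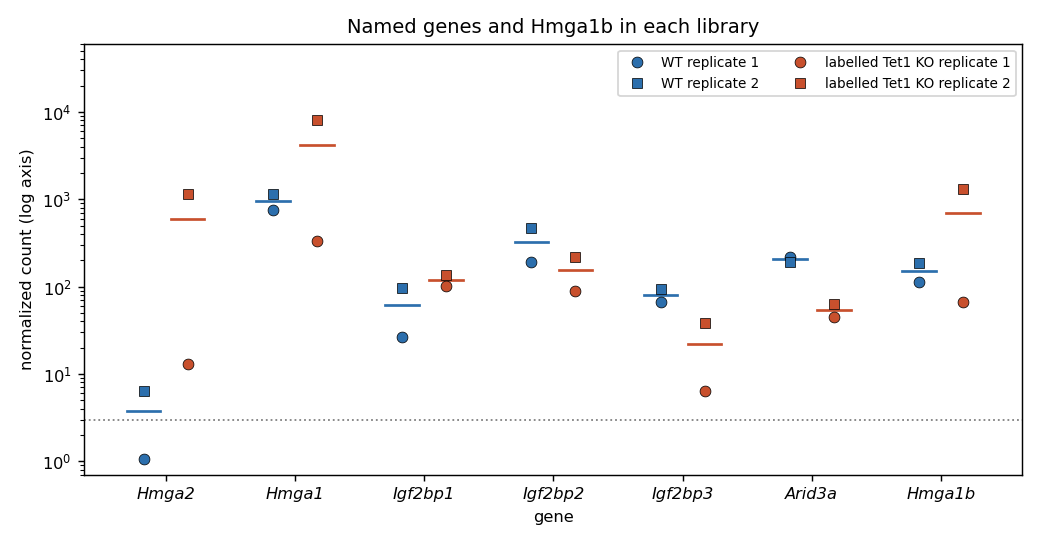
Normalized counts (y axis, log axis) of the 6 listed genes and of Hmga1b in each of the 4 libraries, with circles for replicate 1, squares for replicate 2 and bars at the mean of the 2 libraries of a group. The dotted line at 3 normalized counts stands near the level of 3 reads, which is between 2.70 and 3.21 normalized counts depending on the library. Hmga2 and Hmga1 are set apart in KO replicate 2 (1163 and 7998 normalized counts), while Arid3a is lower in both KO libraries (45.0 and 63.1) than in both WT libraries (220 and 192).

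The 3 IGF2BP genes did not share a direction. Igf2bp1 (ENSMUSG00000013415, chr11:95957163-96005940, minus strand), which carries 4 let-7 sites like Hmga2, was listed at 26.7 and 97.5 normalized counts in WT and at 103 and 137 in KO replicates 1 and 2. Both KO libraries were above both WT libraries, but WT replicate 2 and KO replicate 1 were nearly level. Group means were 62.1 ± 50.1 and 119.9 ± 24.2 normalized counts (SD, n = 2 each), with a log2 difference of 1.20 (standard error 0.73). Without WT replicate 1 that difference was 0.28. The KO libraries differed by 1.33 times (1.03 to 1.74) and the WT libraries by 3.65 times (2.35 to 5.90), so here the wider gap lay within WT.

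Igf2bp2 (ENSMUSG00000033581, chr16:22059009-22163299, minus strand) was listed at 192 and 464 normalized counts in WT and at 88.8 and 217 in KO replicates 1 and 2. KO replicate 2 lay between the WT libraries, so the groups overlapped. The log2 difference was −1.10 (standard error 0.65), and it was −0.46 without KO replicate 1 and −1.74 without KO replicate 2. Within each genotype replicate 2 was above replicate 1 by nearly the same factor, 2.42 times in WT (2.04 to 2.88) and 2.44 times under the KO label (1.90 to 3.18).

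Igf2bp3 (ENSMUSG00000029814, chr6:49085223-49214957, minus strand) was listed at 66.2 and 92.9 normalized counts in WT, at 6.42 in KO replicate 1 and at 37.9 in KO replicate 2. Both KO libraries were below both WT libraries. The lowest value rests on 6 reads, and KO replicate 2 was 5.89 times KO replicate 1 (2.49 to 17.0). The log2 difference of KO minus WT was −2.23 (standard error 0.92), and −1.03 without KO replicate 1. Annotated antisense genes overlap Igf2bp3 in 2 cases, Hmga1 in 2 cases and Igf2bp1 in 1 case, and none was annotated over Igf2bp2 or Arid3a.

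Arid3a (ENSMUSG00000019564, chr10:79927043-79955018, plus strand) had the smallest spread within genotypes among the 6 genes, a pooled SD of 0.26 on the log2 scale. It was listed at 220 and 192 normalized counts in WT and at 45.0 and 63.1 in KO replicates 1 and 2. The group means were 206 ± 19.5 and 54.0 ± 12.8 normalized counts (SD, n = 2 each). Each KO library was below each WT library by a log2 difference of −2.26 to −1.59, and the fitted difference was −1.93 (standard error 0.45). KO replicate 2 was 1.40 times KO replicate 1 (0.944 to 2.11), an interval that includes equal levels. Dropping any 1 of the 4 libraries kept the log2 difference between −2.17 and −1.69. Arid3a, Hmga2 and Lin28b lie on chromosome 10, as Tet1 does (chr10:62804570-62908996), at 17.0, 57.5 and 17.3 Mb from it.

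The orders of the libraries were set against those of all genes. Of the 6 listed genes, 2 had both KO libraries above both WT, 2 had both below, and 2 overlapped, where the shares over all genes tested were 22.5% above and 25.4% below (47.9% together). KO replicate 2 exceeded KO replicate 1 in 6 of 6 genes (52.3% over all genes), and by more than 1 on the log2 scale in 4 of 6 (21.7%). A gap of more than 4 on that scale was found in Hmga2 and Hmga1, 2 of 6 (0.62%). WT replicate 2 exceeded WT replicate 1 in 5 of 6 (52.6%). The KO libraries chose the genes, so nothing is read from those KO counts. The median log2 difference of KO minus WT over the 6 was −0.14, and over all genes tested it was −0.07.

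**Figure D3:**
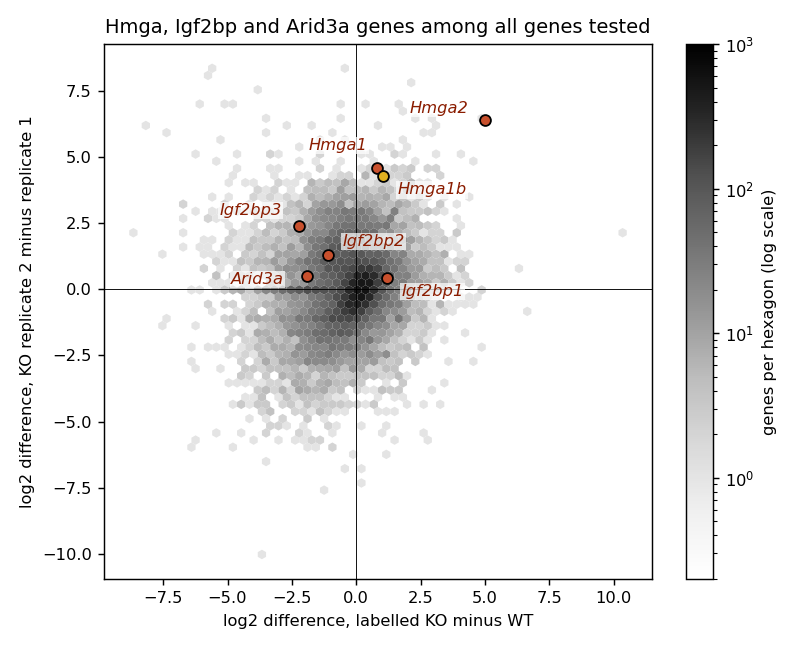
Log2 difference of KO minus WT (x axis) against the log2 difference of KO replicate 2 minus KO replicate 1 (y axis) for the 22094 genes tested, shaded by the number of genes per hexagon on a log scale, with the 6 listed genes and Hmga1b as points. Hmga2 lies at 5.02 and 6.39, Hmga1 and Hmga1b lie high on the y axis (4.57 and 4.26) near the centre of the x axis, and Arid3a lies at −1.93 on the x axis with only 0.48 on the y axis.

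Levels per length, as reads scaled by gene length and by the reads on genes of the library (FPKM), gave the order among the genes. In WT, Hmga1 was highest at 21.8 ± 5.83 FPKM, followed by Igf2bp2 at 2.15 ± 1.21, Arid3a at 1.82 ± 0.225, Igf2bp3 at 0.476 ± 0.0995, Igf2bp1 at 0.310 ± 0.244 and Hmga2 at 0.0267 ± 0.0267 FPKM (SD, n = 2 each). Igf2bp2 and Arid3a did not differ beyond their spread, and neither did Igf2bp3 and Igf2bp1. In KO replicate 1 Hmga2 was at 0.0856 FPKM, above only Igf2bp3 at 0.0355 FPKM. In KO replicate 2 Hmga2 was second at 8.50 FPKM, behind Hmga1 at 186 FPKM and ahead of Igf2bp2 at 1.45, Igf2bp1 at 0.701, Arid3a at 0.562 and Igf2bp3 at 0.230 FPKM.

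KO replicate 2, the library in which Hmga2 and Hmga1 were high, also stood apart in its cell markers. Gfap, the intermediate filament of astrocytes, was listed at 58004 and 67297 normalized counts in WT, at 174853 in KO replicate 1 and at 9945 in KO replicate 2. All 9 of 9 astrocyte markers were detected in every library, and their sum was 156082 and 155161 in WT, 256721 in KO replicate 1 and 45879.9 in KO replicate 2. Gfap made up most of the sum in KO replicate 1, and without it the other 8 summed to 98079 and 87865 in WT, to 81869 in KO replicate 1 and to 35935 in KO replicate 2. Of the 9 markers, 5 were below both WT libraries in both KO libraries (25.4% of all genes tested) and 1 was above (22.5%). The 10 proliferation markers summed to 1059.5 and 2948 normalized counts in WT and to 5407 and 9449 under the KO label, above WT in both KO libraries.

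Markers of other cells that such a culture can hold were checked in the same way. The 9 fibroblast and meningeal markers summed to 4215 and 3044 normalized counts in WT and to 3053 and 2829 under the KO label. Without Ogn, the gene of highest mean, the sums were 875 and 2076 in WT and 2379 and 2100 under the KO label. Of 8 tested, 5 had higher and 3 lower log2 means under the KO label. Lum was at 4.27 and 2.76 in WT and at 0 and 2.70 under the KO label, near or under the 3-read floor throughout. The mural list (4 of 5 genes listed) summed to 4117 and 11194 in WT and to 24509 and 51198 under the KO label, carried by Acta2, a smooth muscle actin, at 22252 and 50185 in the KO libraries. The other 3 mural genes, Pdgfrb, Rgs5 and Kcnj8, had lower means on the log2 scale under the KO label and together summed to 2137 and 2291 in WT and to 2256 and 1013 in KO. The 7 microglial markers summed to 459.9 and 1252 in WT and to 82.4 and 77.5 under the KO label, where P2ry12 was at 0 in KO replicate 1. The 4 listed endothelial markers summed to 76.8 and 168 in WT and to 262 and 67.6 under the KO label. Without Kdr, the gene of highest mean, the sums were 8.54 and 19.3 in WT and 13.9 and 29.7 under the KO label. Neural progenitor markers, 8 of 8 listed, summed to 29959 and 38653 in WT and to 51928 and 61394 under the KO label. Without Nes, an intermediate filament gene, the other 7 progenitor markers summed to 20825 and 24372 in WT, to 30894 in KO replicate 1 and to 16379 in KO replicate 2, and 3 of the 8 had lower log2 means under the KO label. The sums for the oligodendrocyte lineage (6 genes) were 6983 and 11122 in WT and 18267 and 10764 under the KO label. Without Olig1, the gene of highest mean, they were 1727 and 3089 in WT and 2948 and 3689 under the KO label. For neurons (6 genes) the sums were 894 and 1926 in WT and 2482 and 1839.6 under the KO label. Without Stmn2, the gene of highest mean, the neuronal sums were 70.4 and 96.6 in WT and 258 and 424 under the KO label. Both KO libraries were above both WT libraries in 4 of the 5 neuronal markers tested, beside 22.5% of all genes. Of these, Rbfox3 and Dcx were under the 3-read floor in WT. Rbfox3 was at 1.07 and 0.920 in WT and at 55.7 and 1.80 in KO replicates 1 and 2. Dcx was at 1.07 and 0 in WT and at 7.49 and 4.51 under the KO label. Of 5 pluripotent cell markers only Nanog and Dppa4 were listed, and Dppa4 was at 0 in 3 libraries. The part of any of these in the levels of the let-7 genes was not tested, and in bulk RNA a change in cell number and a change in RNA per cell cannot be told apart.

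The 5 protein-coding genes whose profile over the 4 libraries lay nearest to that of Hmga2, by Euclidean distance of centred log2 values among 15675 others, were Jaml, Prkg2, Anxa8, Il1rl1 and Nptx2. Each was low in 3 libraries and high in KO replicate 2, which follows from choosing them by the Hmga2 profile and is not a result. Jaml, an adhesion molecule of leukocytes and epithelia, was at 0 and 0 normalized counts in WT and at 3.21 and 124 under the KO label. Il1rl1, the receptor of interleukin 33, was at 0 and 5.52 in WT and at 3.21 and 139 under the KO label. Nptx2, a secreted neuronal pentraxin, was at 0 and 3.68 in WT and at 11.8 and 139.7 under the KO label. None of the 5 reached the level of Hmga2 in KO replicate 2. By the same distance Hmga1b ranked 167, Hmga1 219, Igf2bp1 1118, Igf2bp2 9363, Igf2bp3 12466 and Arid3a 13354.

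The wider let-7 pathway was followed in 6 lists holding 84 genes, of which 71 were listed and 70 tested. No gene of any list passed an adjusted p of 0.05 in limma with Benjamini-Hochberg adjustment over all genes, where none of the 22094 genes passed (0.0%). At an unadjusted p under 0.05, 9 of the 70 were higher and 3 lower, beside 4.54% and 9.18% of all genes (13.7% together). These counts moved with the library left out, and so did the count over all genes. edgeR called none of the 70, as of all genes, and DESeq2 called 5, namely Thbs1, Rrm2, Ccna2, Cdkn2b and Gli1, where it called 4.92% of all genes. DESeq2 gave no adjusted p to some genes of low counts, among them Trim71, Igf2 and Arid3c, and these were counted as not called.

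Among 20 genes that make, degrade or use let-7, 10 had a higher and 10 a lower mean under the KO label, with a median log2 difference of −0.00, and none had an unadjusted p under 0.05. Both KO libraries were above both WT libraries in 7 of the 20 and below in 1, beside 22.5% and 25.4% of all genes. Dgcr8, the partner of Drosha, was at 423 and 604 normalized counts in WT and at 649 and 839 under the KO label. Xpo5, which exports the precursors from the nucleus, was at 1914 and 2135 in WT and at 2476 and 3151 under the KO label. Dicer1, which cuts the precursor to the mature form, was at 1511 and 1078 normalized counts in WT and at 1125 and 1457 under the KO label. Drosha, which makes the first cut, had a log2 difference of −0.01 (standard error 0.29). Dis3l2, the nuclease that degrades uridylated let-7 precursors, was at 266 and 306 in WT and at 419 and 524 under the KO label, without passing the test. Tarbp2, a Dicer partner, was at 265 and 256 in WT and at 352 and 616 under the KO label. Tut4 and Tut7, which add the uridines that LIN28 directs, had log2 differences of −0.38 and −0.26.

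Of 17 let-7 precursor and host genes 4 were listed. Of 3 tested, 2 were higher and 1 lower in mean under the KO label, with a median log2 difference of 0.19, and the groups overlapped in each. The host Mir99ahg was at 216 and 102 normalized counts in WT and at 51.4 and 110.0 under the KO label. The host Huwe1 was at 6240 and 5508 in WT and at 6155 and 8618 under the KO label. The host Wdr82 was at 2045 and 2592 in WT and at 2658 and 2586 under the KO label. The precursor gene Mirlet7a-1 did not exceed 1.80 normalized counts in any library. These values are of long RNA and give no level of mature let-7.

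Of 25 other known let-7 targets 15 were higher and 10 lower in mean under the KO label. Over the 22094 genes tested, 10237 were higher and 11857 lower. The median log2 difference of the 25 was 0.27. In limma 5 had an unadjusted p under 0.05, all higher, beside 4.54% of all genes higher and 9.18% lower. Both KO libraries were above both WT libraries in 8 of the 25 and below in 4, beside 22.5% and 25.4% of all genes. Thbs1, a secreted matrix glycoprotein, was listed at 10403 and 16053 normalized counts in WT and at 46932 and 59784 under the KO label, a log2 difference of 2.04 (standard error 0.39, limma adjusted p = 0.169, 2 of 2 KO libraries above WT). Rrm2, a subunit of ribonucleotide reductase, was at 134 and 323 in WT and at 788 and 1389 under the KO label. Ccnd2 and Cdk6, a cyclin and a kinase of G1 phase, had log2 differences of 1.33 and 0.95. In each of these genes both KO libraries were above both WT libraries. The proliferation markers were higher in both KO libraries too, and their part in these values was not tested. The median of the 25 targets was −0.17 without KO replicate 2, 0.10 without WT replicate 1 and 0.64 without KO replicate 1.

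Among 8 genes linked to Hmga2, 4 were higher and 4 lower in mean. Cdkn2a, whose products p16INK4a and p19ARF restrain the cell cycle, was at 563 and 354 normalized counts in WT, at 869 in KO replicate 1 and at 196 in KO replicate 2. Its groups overlapped. Cdkn2b, the neighbouring inhibitor, was at 2148 and 2281 in WT and at 942 and 874 under the KO label, a log2 difference of −1.29 (standard error 0.27, limma adjusted p = 0.194). Ccna2, a cyclin of S and G2 phase, was at 35.2 and 118 in WT and at 435 and 528 under the KO label. Plag1, a transcription factor gene, was at 19.2 and 34.0 in WT and at 0 and 16.2 under the KO label, and Snai2 did not exceed 10.7 normalized counts in any library.

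Of 9 mRNAs that IGF2BP proteins are known to bind, 6 were higher and 3 lower in mean. Igf2, for which the family is named, did not exceed 3.68 normalized counts in any library. H19, the imprinted noncoding neighbour of Igf2, was at 2.13 and 57.9 in WT and at 81.3 and 132 under the KO label, a wide gap within WT. Gli1, a transcription factor of Hedgehog signalling, was at 214 and 725 in WT and at 53.5 and 27.9 under the KO label, a log2 difference of −3.32 (standard error 0.72, limma adjusted p = 0.196, 2 of 2 KO libraries below WT). The median of this list was 0.24, which became −0.53 without KO replicate 2, −0.19 without WT replicate 1 and 1.09 without KO replicate 1.

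Relatives of the named genes made the last list, in which 7 of 10 were higher and 3 lower in mean. Hmgn2, a nucleosome-binding protein, was at 748 and 1006 normalized counts in WT and at 2525 and 1827 under the KO label, a log2 difference of 1.31. Hmgb3, an HMG-box protein, was at 306 and 412 in WT and at 832 and 833 under the KO label, a log2 difference of 1.23. Arid3b, the nearest relative of Arid3a and itself a let-7 target, was at 114 and 88.3 in WT and at 100.6 and 80.2 under the KO label, whereas Arid3a was lower in both. Arid3c was near the 3-read floor in WT and at 0 in both KO libraries.

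**Figure D4:**
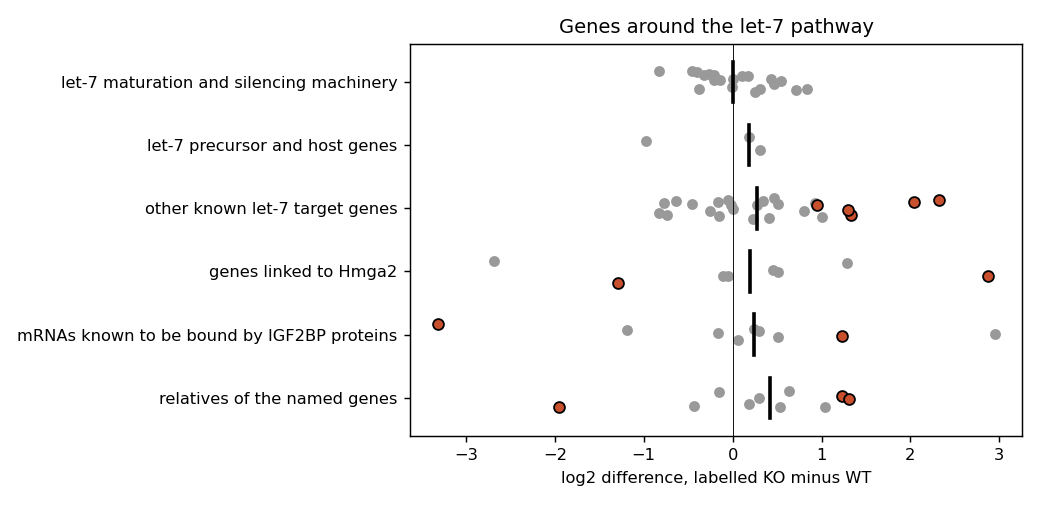
Log2 difference of KO minus WT (x axis) for each tested gene of the 6 pathway lists, with a black bar at the median of each list and a thin line at 0. Points in red have an unadjusted limma p under 0.05 and those in grey do not. The list medians lie between −0.00 and 0.42, while single genes reach from −3.32 (Gli1) to 2.95 (H19).

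Beyond the named genes, the let-7 sites were set against the differences of all tested protein-coding genes with a 3′ UTR. The median log2 difference of KO minus WT was −0.01 in 13906 genes with no site, −0.01 in 1381 genes with 1 site and −0.05 in 199 genes with 2 or more. Genes with 2 or more sites were higher under the KO label in 44.7% of cases, against 49.2% with no site. Their 3′ UTRs were longer, with a median of 3550 against 1025 bases. Among genes with 3′ UTRs of 2000 to 5000 bases, the medians were −0.00 with no site, 0.02 with 1 and −0.11 with 2 or more.

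The gap between the median of genes with 2 or more sites and that of genes with no site was −0.04, smaller than the SD of 0.13 over the 4 pairs of a KO and a WT library. It was −0.16 and −0.18 in the pairs with KO replicate 1, and 0.02 and 0.08 in those with KO replicate 2. In 3′ UTRs of 2000 to 5000 bases the gap was −0.10, beside an SD of 0.08 over the 4 pairs. It was negative in all 4 pairs, at −0.06 and −0.20 with KO replicate 1 and at −0.14 and −0.23 with KO replicate 2. The 4 pairs share libraries, and this length range was chosen after seeing the data. Between the KO libraries, replicate 2 minus replicate 1, the median was 0.00 in genes with no site, 0.07 with 1 site and 0.19 with 2 or more. In the 3′ UTRs of 2000 to 5000 bases, however, it was 0.09 both with no site and with 2 or more, so that order was not kept at matched length.

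**Figure D5:**
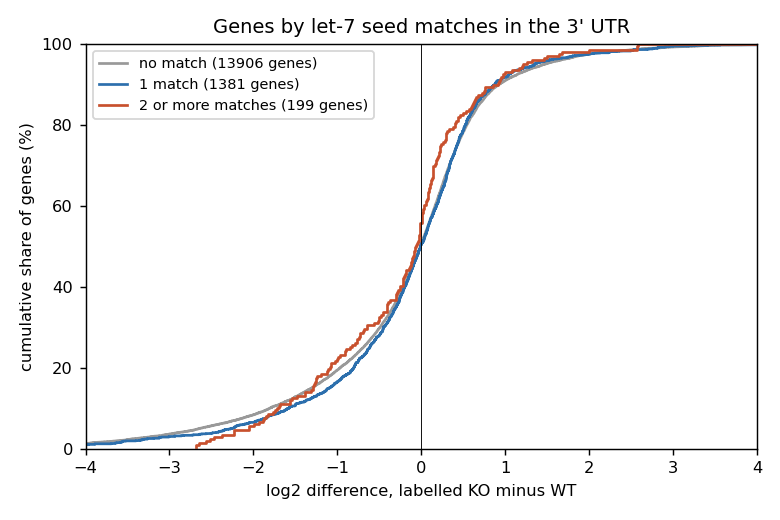
Cumulative share of genes (y axis, percent) by log2 difference of KO minus WT (x axis, shown from −4 to 4) for genes with no, 1 and 2 or more let-7 seed matches. The 3 curves cross 50% close to 0, at medians of −0.01, −0.01 and −0.05.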

How the data were processed

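The authors aligned paired-end Illumina reads to mm10, the build of the coordinates here (GRCm38). The aligner, counter and strand setting are not given in the sources used here. The deposited table holds 1 signal per gene and library that is named FPKM but has no length correction. Each value was a read count divided by 1 size factor per library, and with 1 read worth 0.901 to 1.07, 100% of the values came out whole (relative tolerance 0.0001). The authors also deposited log2 fold changes, p-values and adjusted p-values of their own comparison, and gene positions and lengths. Their fold changes and p-values were not used.

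Normalized counts are those deposited values. FPKM was computed from recovered reads, deposited gene lengths and reads on genes. Differences of KO minus WT came from limma 3.58.1 (lmFit, eBayes with a trend, R 4.3.3) on log2(normalized count + 1) over 22094 genes with a mean of at least 1, without a block, with Benjamini-Hochberg adjustment. Alternatives were pseudocounts of 0.1 and 5, no filter, a mean of at least 10, TMM scaling, quantile normalization, a replicate block, eBayes with no trend, FPKM, each library left out, and edgeR 4.0.16 quasi-likelihood and DESeq2 1.42.0 tests on recovered reads. Scripts were tested on simulated data. Ratios of 2 libraries have exact (Clopper-Pearson) 95% counting intervals. Reads are not unique molecules.

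The 3′ UTRs were cut from GENCODE M21 transcripts, in which 25367 of 25393 gene identifiers were found. Sites were also counted as 8-letter matches, in the transcript with the longest coding sequence and, chosen after seeing the data, in 3′ UTRs of 2000 to 5000 bases. Summing Hmga1 and Hmga1b was chosen after seeing the data too.

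The named genes, gene lists and marker lists were chosen with earlier results of these data known. From each pathway list the 4 genes of lowest p were to be named, from each marker list up to 3 of highest FPKM, and the 5 genes nearest to Hmga2. Not every such gene is described. Among those left out are Actb and Mapk4 of the mRNAs bound by IGF2BP proteins, and Hmgn1 of the relatives. Cdk6, Cdkn2a, Dicer1, Drosha, Tut4, Tut7, Arid3b and Igf2 were named after their values were seen. So were the other genes named for 4 or more let-7 sites, and the markers at 0 or near the 3-read floor. A gene that this rule would name among the let-7 targets is not reported here.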

Additional observations from a re-analysis of the deposited data

How the results depend on the processing

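Across 8 other settings of the fit, 3 of the 6 listed genes kept a positive and 3 a negative log2 difference of KO minus WT. With each library left out the positive count ran from 2 to 3, being 2 without KO replicate 2, where Hmga1 turned from 0.82 to −1.47. Sizes moved more: over the other settings Hmga2 ran from 1.65 on log2(FPKM + 1) to 7.27, Igf2bp1 from 0.29 to 1.65, Igf2bp3 from −2.32 to −0.39 and Arid3a from −1.97 to −0.95. FPKM values near or under 1 are pulled together by the added 1.

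No gene passed an adjusted p of 0.05 in limma or edgeR, with 3032 (limma) and 2733 (edgeR) at an unadjusted p under 0.05. DESeq2 called 1088 genes (285 higher and 803 lower) and 5 genes of the pathway lists. The cause of the difference between tools was not tested. Leaving out each library gave 0 to 0 calls, also in the pathway lists, and 1135 (without WT replicate 1) to 4846 (without KO replicate 1) genes at an unadjusted p under 0.05. Without WT replicate 2 that count was 1380. Quantile normalization gave 1371 higher and 1537 lower at that p, where the fit as reported gave 1004 and 2028, and moved the median of all genes from −0.07 to 0.06. The gap between genes with 2 or more let-7 sites and those with none ran from −0.20 (without KO replicate 2) to 0.0275 (without KO replicate 1) over the libraries left out and from −0.11 to −0.01 over 12 other settings.

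The replicate numbers are shared but are not stated to pair the libraries, and deviations of same-numbered libraries had a correlation of −0.084. A replicate block left 0 genes at an adjusted p of 0.05 and gave 2583 at an unadjusted p under 0.05 (762 higher and 1821 lower). With 2 libraries per group, and 1 and 7 reads of Hmga2 in WT, its ratio to WT is limited by counting as well as by replication.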

Other observations

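Apart from Hmga2, Igf2bp1 and Lin28b, 9 genes had 4 or more 7-letter let-7 sites in the longest annotated 3′ UTR, and all 9 were tested. Both KO libraries were below both WT libraries in 4 of them (25.4% of all genes tested) and above in 1 (22.5%), and 4 overlapped. None had an adjusted p under 0.05 in limma (0.0% of all genes tested). The annotated 3′ UTR was 122583 bases in D10Wsu102e, the gene above WT, and 16999 bases in Zbtb37, which overlapped. Ptafr, counted as below, was at 6.40 and 5.52 normalized counts in WT and at 0 and 2.70 under the KO label, at or under the 3-read floor in KO. Nr6a1, an orphan nuclear receptor of embryonic and germ cells with 8 sites, was at 134 and 86.4 normalized counts in WT and at 69.6 and 56.8 under the KO label. Trim6, a ubiquitin ligase with 6 sites, was at 125 and 108 in WT and at 12.8 and 27.0 under the KO label, a log2 difference of −2.57 (standard error 0.60, limma adjusted p = 0.218, 2 of 2 KO libraries below WT). Trim71, the let-7 target known from worms as lin-41, had 4 sites and did not exceed 7.47 normalized counts in any library. The 9 genes were chosen by their sites and not by their values. Nr6a1, Trim6 and Trim71, however, were named with their values known. Mcf2l and Nudt12, with 7 sites each, had overlapping groups and log2 differences of 0.13 and −0.06.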
